A study of Homo sapiens with 12 samples.

Results

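The matrix metalloproteinases (MMPs) and the tissue inhibitors of metalloproteinases (TIMPs) were followed through drug exposure and drug withdrawal in A375, an established human melanoma cell line. The family members were taken by gene symbol from the table of raw read counts, and 10 of its 44659 entries were used: MMP1, MMP2, MMP3, MMP14, MMP15, MMP16, MMP17, TIMP1, TIMP2 and TIMP3. Of these, 9 passed the filter on low counts and were among the 15916 genes tested, and MMP1 did not. The controls (CC) were kept in DMSO, the solvent, for 72 h. The treated cells (TC) were exposed for 72 h to MAPKi, a combination of the BRAF inhibitor vemurafenib and the MEK inhibitor cobimetinib at 500 nM each. Persister cells (PC) and recovered cells (RC) received the same MAPKi exposure and were then kept without drug for 2 and 9 days. No DMSO culture was sampled at these later times. In comparisons of PC or RC with CC, the drug history and the longer time in culture therefore cannot be told apart. Each group had 3 libraries of cytoplasmic RNA depleted of ribosomal RNA, and the comparisons ask how transcript levels move under the drugs and after their removal. All groups come from a single line, and nothing in the labels says whether the 3 libraries of a group were grown as separate cultures, so the p-values measure the spread between these libraries, which may be technical.

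MMPs are zinc-dependent endopeptidases that are made as inactive proenzymes and cut collagens, laminins, proteoglycans and cell-surface proteins once their propeptide is removed. Some are secreted and others are held at the cell surface by a transmembrane segment or a lipid anchor, and TIMPs bind the active site and block it. In melanoma these enzymes are known for their part in matrix breakdown, invasion and shedding of surface receptors, and the balance between protease and inhibitor is set after translation as well as by transcript level.

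MMP15, MMP2, MMP14 and MMP17 rose under MAPKi, as did the inhibitor TIMP2, and all of these were still raised after 2 drug-free days and back within 1.5-fold of the control level after 9. TIMP1 moved the other way and TIMP3 was highest in RC. MMP1 and MMP3 were close to absent in every group. In RNA from a whole culture, a change in the number of cells that carry a transcript and a change in the amount per cell cannot be told apart.

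The libraries held between 37773389 and 55567097 counts. Levels are given as CPM, the usual unit of counts after scaling to the normalized library size, and a count of 3 corresponds to 0.0534 to 0.0785 CPM. Melanoma markers were present, with 9 or 10 of 10 genes at a mean of at least 1 CPM in each group and a summed level of 3281 to 5069 CPM in CC and RC, 9314 to 12100 CPM in TC and 4900 to 6476 CPM in PC. The largest of them in TC and PC was DCT, at 407 CPM in CC, 6452 in TC and 2601 in PC. CSPG4 went the other way, from 1695 CPM in CC to 114 in TC and 83.0 in PC. By the test, 6 of the 10 were higher and 2 lower than CC in both TC and PC. Of all tested genes, 33.2% were higher in both, with 34.7% and 35.9% lower. Markers of other cell types were also summed, and each of the sums differed between groups. The 7 fibroblast genes summed to 51.4 to 66.28 CPM in CC, 80.38 to 105.9 in TC, 36.96 to 48.42 in PC and 46.56 to 50.53 in RC, with FAP at 16.003 CPM in CC and 68.4 CPM in TC, LUM at 27.8 and 6.75 CPM, and THY1 at 0 in all groups. The 5 keratinocyte genes summed to 40.74 to 52.32 CPM in CC, 88.62 to 94.73 in TC, 95.24 to 104.3 in PC and 55.76 to 61.46 in RC, nearly all of it KRT10, while KRT14 was at 0.015 CPM in CC and 2.29 CPM in PC and KRT1 at 0 throughout. The 5 endothelial genes summed to 9.649 to 12.14 CPM in CC, 5.068 to 6.475 in RC and at most 2.565 CPM in TC and PC, with KDR at 6.42 CPM in CC, 0.034 in TC and 0.023 in PC, and CDH5 at 0 throughout. The 6 macrophage genes summed to 2.171 to 2.582 CPM in CC, 1.268 to 1.503 in TC, 0.5232 to 1.457 in PC and 1.513 to 1.773 in RC, with AIF1 at 0. The part of these markers in the MMP and TIMP results was not tested. Of 10 genes driven by MAPK signalling, 8 fell and 1 (EPHA2) rose in both TC and PC, against 34.7% and 35.9% of all tested genes lower. In RC 3 of the 10 fell, against 19.1% of all genes.

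RefSeq promoter entries, 250 bases before to 50 bases after the start of the gene on GRCh38.p14, were matched for 4 of the 10 members: MMP14, MMP15, TIMP1 and TIMP3. The first 3 are shown because MMP14 and MMP15 rose together and TIMP1 fell in the same cells. Capitals mark the letters of 6 searched motifs on both strands: AP-1 (TGANTCA), CRE (TGACGTCA), ETS (CCGGAA), E-box (CACGTG), TEAD (GGAATG) and GC box (GGGCGG, reading CCGCCC on the other strand). All 3 windows are on the + strand: MMP14 at chr14:22836335-22836634, MMP15 at chr16:58025504-58025803 and TIMP1 at chrX:47582186-47582485.
MMP14: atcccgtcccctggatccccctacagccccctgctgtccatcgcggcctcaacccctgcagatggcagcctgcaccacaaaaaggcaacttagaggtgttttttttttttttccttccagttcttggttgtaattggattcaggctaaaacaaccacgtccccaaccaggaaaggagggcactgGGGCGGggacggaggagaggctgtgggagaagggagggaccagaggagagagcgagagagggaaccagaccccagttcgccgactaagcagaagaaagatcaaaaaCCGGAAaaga
MMP15: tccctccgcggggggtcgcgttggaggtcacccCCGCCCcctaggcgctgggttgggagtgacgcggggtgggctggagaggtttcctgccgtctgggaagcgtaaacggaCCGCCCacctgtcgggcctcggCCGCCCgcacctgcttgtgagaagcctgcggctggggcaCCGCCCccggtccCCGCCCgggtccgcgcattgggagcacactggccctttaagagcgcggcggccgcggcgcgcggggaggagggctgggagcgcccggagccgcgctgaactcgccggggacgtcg
TIMP1: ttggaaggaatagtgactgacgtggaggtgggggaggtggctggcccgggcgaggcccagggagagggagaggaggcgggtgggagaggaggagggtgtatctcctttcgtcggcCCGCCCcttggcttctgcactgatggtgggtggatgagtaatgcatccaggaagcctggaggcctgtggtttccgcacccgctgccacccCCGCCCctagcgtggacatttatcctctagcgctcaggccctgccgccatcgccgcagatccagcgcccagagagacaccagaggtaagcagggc
No window held an exact AP-1, CRE, E-box or TEAD match, against 7.71%, 1.85%, 7.26% and 14.03% of 35116 promoters of this length. Sites that depart from the searched letters were not looked for, so a missing match does not show that a site is absent. MMP14 alone held an ETS match, 1 near the 3′ end of the window, and 17.25% of all promoters held at least 1. GC boxes numbered 1 in MMP14, 5 in MMP15, 2 in TIMP1 and 5 in TIMP3, and 44.95% of promoters had 1 or more. The windows differed in composition, with 55.0% G and C in MMP14, 65.0% in TIMP1, 72.7% in TIMP3 and 75.3% in MMP15. No capitals overlap between motifs. A match describes the letters and is not evidence of a factor at the site.

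The secreted collagenase and stromelysin were at the edge of detection. MMP1, which cuts fibrillar collagens, lies at chr11:102789401-102798160 on the − strand (GENCODE v44, GRCh38), and 8.14% of its exon length overlaps the antisense gene WTAPP1. Its counts in the 3 libraries were 2, 4 and 0 for CC, 0, 0 and 0 for TC, 0, 1 and 0 for PC, and 11, 6 and 5 for RC. The RC libraries were above those of every other group, yet even the highest stood at 0.271 CPM. A count of 0 in TC allows a level of up to 0.0777 CPM in the shallowest of its libraries. MMP1 was too low to be tested. With a filter that kept any gene with a summed count of at least 2, the adjusted p was 0.0701 for TC against CC, 0.299 for RC against CC and 0.0233 for RC against PC (edgeR quasi-likelihood test), so of these it passed in RC against PC alone.

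MMP3, a stromelysin that cuts many matrix proteins and activates other proenzymes, is the neighbour of MMP1 at chr11:102835801-102843609. Counts were 2, 6 and 8 for CC, 2, 2 and 8 for TC, 19, 18 and 22 for PC, and 21, 7 and 19 for RC. PC was above every CC and TC library, whereas RC was spread across both ranges. The mean level was 0.118 ± 0.062 CPM in CC and 0.466 ± 0.065 CPM in PC (SD, n = 3 here and in all values below), a log2 difference of 1.93 ± 0.59 (SE, adjusted p = 0.0118). MMP3 passed the filter through its PC and RC counts, so its passing is tied to their being high. The TC value was -0.43 ± 0.69 (adjusted p = 0.606) and the RC value 1.43 ± 0.60 (adjusted p = 0.081), and without the second RC library the RC value became 1.84 with an adjusted p of 0.0294.

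MMP2, the gelatinase that cuts type IV collagen and denatured collagen, rose 12.7-fold and 14.4-fold in TC and PC. It lies at chr16:55389700-55506691 on the + strand. The libraries gave 121, 93.6 and 94.4 CPM in CC, 1150, 1260 and 1520 CPM in TC, 1362, 1544 and 1556 CPM in PC, and 95.1, 88.3 and 76.6 CPM in RC. No TC or PC library came near the CC range, and the RC range overlapped it. The log2 fold change was 3.67 ± 0.14 in TC (12.7-fold, adjusted p = 6.62e-10) and 3.85 ± 0.14 in PC (14.4-fold, adjusted p = 4.78e-10). TC and PC did not differ by the test (0.18, 95% interval -0.09 to 0.46, adjusted p = 0.325). In RC the difference from CC was -0.25 (95% interval -0.53 to 0.03, adjusted p = 0.142).

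The membrane-type enzymes split. MMP14, MMP15 and MMP17 rose and MMP16 did not. MMP15, a transmembrane MMP, showed the largest change of the 9 tested members in PC. It lies at chr16:58025754-58046901 on the + strand, on the same chromosome as MMP2. Its levels were 133, 137 and 111 CPM in CC, 1177, 1721 and 2159 CPM in TC, 3435, 3442 and 3666 CPM in PC, and 142, 124 and 113 CPM in RC. The 3 PC libraries lay close together and above every TC library, and the RC libraries overlapped those of CC. Relative to CC, MMP15 was up by 3.73 ± 0.19 on the log2 scale in TC (13.3-fold, adjusted p = 6.7e-09) and by 4.79 ± 0.20 in PC (27.7-fold, adjusted p = 1.33e-09). MMP15 thus rose further after the drugs had been removed, by 1.06 ± 0.17 from TC to PC (2.09-fold, adjusted p = 0.000912), although the test against a 1.5-fold change was just missed (adjusted p = 0.0548). Between PC and RC it fell by 4.80 on the log2 scale. Its difference between RC and CC was -0.01 (95% interval -0.38 to 0.37, adjusted p = 0.986).

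MMP14, a transmembrane MMP that cuts pericellular collagen and activates the MMP2 proenzyme with the help of TIMP2, lies at chr14:22836560-22849041 on the + strand. It stood at 188, 193 and 181 CPM in CC, 528, 670 and 776 CPM in TC, 512, 552 and 592 CPM in PC, and 152, 134 and 134 CPM in RC. TC and PC overlapped each other but not CC, and all RC libraries were below CC. The rise was 1.81 ± 0.12 in TC (3.51-fold, adjusted p = 5.64e-08) and 1.56 ± 0.12 in PC (2.94-fold, adjusted p = 1.88e-07). In RC, MMP14 was below CC by -0.42 ± 0.12 (adjusted p = 0.0135), a call that was lost without the second RC library (adjusted p = 0.0523). The PC and TC levels differed by -0.25 (adjusted p = 0.137), but without the first TC library the value was -0.38 with an adjusted p of 0.011.

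MMP17, which is held at the surface by a glycosylphosphatidylinositol anchor, lies at chr12:131828393-131851783 on the + strand. The values were 109, 118 and 130 CPM in CC, 374, 377 and 393 CPM in TC, 282, 259 and 271 CPM in PC, and 102, 87.9 and 80.1 CPM in RC. The 4 groups did not overlap at all, in the order TC, PC, CC, RC. Against CC the log2 change was 1.68 ± 0.09 in TC (3.21-fold, adjusted p = 9.81e-09), 1.19 ± 0.09 in PC (2.28-fold, adjusted p = 1.72e-07) and -0.40 ± 0.09 in RC (adjusted p = 0.00393). Unlike MMP15, MMP17 was lower in PC than in TC, by -0.50 ± 0.09 (adjusted p = 0.00164).

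MMP16, also a transmembrane MMP, is encoded on chromosome 8 and moved within a narrow range. It counted 278, 260 and 337 CPM in CC, 198, 237 and 242 CPM in TC, 290, 313 and 364 CPM in PC, and 355, 353 and 348 CPM in RC. TC lay below all other groups, PC overlapped CC, and RC lay above CC. The TC fall was -0.37 ± 0.11 (adjusted p = 0.0108) and became -0.24 (adjusted p = 0.0507) without the third CC library or -0.28 (adjusted p = 0.0505) without the first TC library. The change was 0.14 ± 0.11 in PC (adjusted p = 0.269), or 0.27 (adjusted p = 0.0333) without the third CC library. For RC it was 0.27 ± 0.11 (adjusted p = 0.0747), which passed without the third CC library (0.39, adjusted p = 0.0109). From TC to PC, MMP16 rose by 0.51 ± 0.11 (1.43-fold, adjusted p = 0.00556).

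The 3 inhibitors took 3 different courses. TIMP2, which blocks most MMPs and also links the MMP2 proenzyme to MMP14 at the cell surface, rose with the proteases. It lies at chr17:78852977-78925387 on the − strand. The libraries gave 850, 834 and 824 CPM in CC, 2477, 2319 and 2127 CPM in TC, 2359, 2133 and 1899 CPM in PC, and 975, 858 and 825 CPM in RC. TC and PC were far above CC and overlapped each other, and RC overlapped CC. The change was 1.46 ± 0.09 in TC (2.76-fold, adjusted p = 2.98e-08), 1.35 ± 0.09 in PC (2.55-fold, adjusted p = 5.69e-08) and 0.08 in RC (95% interval -0.11 to 0.28, adjusted p = 0.488). The exons of TIMP2 share 3.61% of their length with CEP295NL on the same strand.

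TIMP1, a secreted inhibitor that is weak against transmembrane MMPs, fell under MAPKi. The gene lies at chrX:47582408-47586789 on the + strand, inside SYN1. Its values were 166, 192 and 153 CPM in CC, 106, 103 and 104 CPM in TC, 103, 104 and 103 CPM in PC, and 177, 161 and 167 CPM in RC. The TC and PC libraries were close to identical and below all CC and RC libraries, which overlapped each other. The fall was -0.71 ± 0.08 in TC (1.63-fold lower, adjusted p = 4.74e-06) and -0.72 ± 0.08 in PC (1.65-fold lower, adjusted p = 3.78e-06). Tested against a 1.5-fold change, TC just missed (adjusted p = 0.0577) and PC just passed (adjusted p = 0.0415), and the PC call was lost in 13 of 19 alternatives. In RC the difference from CC was -0.02 (95% interval -0.18 to 0.15, adjusted p = 0.896).

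TIMP3, an inhibitor bound to the matrix that also blocks several ADAM and ADAMTS proteases, lies at chr22:32801705-32863041 on the + strand, inside SYN3. It stood at 368, 421 and 400 CPM in CC, 426, 545 and 585 CPM in TC, 457, 489 and 509 CPM in PC, and 771, 652 and 626 CPM in RC. All libraries of the other groups lay above CC, and RC lay above all of them. The log2 change was 0.39 ± 0.11 in TC (adjusted p = 0.0089), 0.29 ± 0.11 in PC (adjusted p = 0.0365) and 0.79 ± 0.11 in RC (1.72-fold, adjusted p = 0.000309). From PC to RC it rose by 0.49 ± 0.11 (adjusted p = 0.00197). The PC call was lost without the first CC library (0.24, adjusted p = 0.119), the third CC library (0.31, 0.0539), the second PC library (0.29, 0.0797) or the third PC library (0.26, 0.104), with the value and the adjusted p in each bracket.

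**Figure D1:**
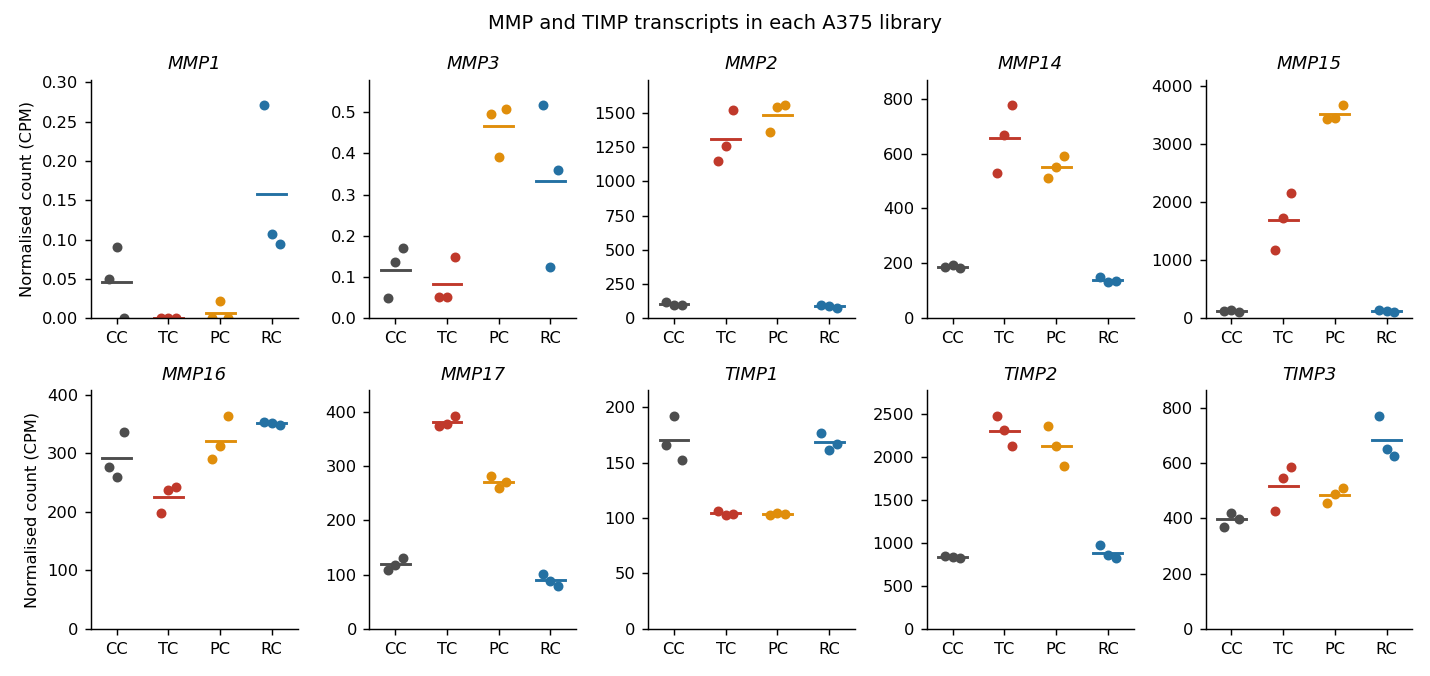
Normalized counts (CPM, linear axis from 0 in each panel) of the 10 members, with 1 point per library and a bar at the mean of the 3 libraries, for CC, TC, PC and RC. MMP2, MMP14, MMP15, MMP17 and TIMP2 stand above CC in TC and PC, TIMP1 stands below it, TIMP3 is highest in RC, and the MMP1 and MMP3 panels end below 1 CPM.

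Within TC, the third library was the highest and the first the lowest for MMP2, MMP14, MMP15, MMP16, MMP17 and TIMP3, and TIMP2 ran the other way. In PC the third library was likewise the highest and the first the lowest for MMP2, MMP14, MMP15, MMP16 and TIMP3, and TIMP2 again ran the other way. The spread was widest for MMP15, at 1686 ± 492 CPM in TC against 3514 ± 131 CPM in PC. The third TC library was also the deepest of the 12, with 55567097 counts, and the first had 38320786. Leaving out single libraries kept the MMP15 change from TC to PC between 0.86 and 1.28, with adjusted p-values up to 0.00673.

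Counted over the family, TC had 6 of the 9 tested members higher than CC (MMP2, MMP14, MMP15, MMP17, TIMP2 and TIMP3) and 2 lower (MMP16 and TIMP1). Of all tested genes, 33.2% were higher and 34.7% lower. Beyond 1.5-fold there were 5 higher and 0 lower members, against 16.1% and 19.3% of all genes. For the lower side, glmTreat in edgeR gave 1 member (TIMP1) at an unadjusted p under 0.05, DESeq2 gave 0, and TIMP1 passed in 3 of the alternatives. The median log2 change was 1.46 over the tested members and -0.02 over all tested genes.

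In PC, 7 members were higher and 1 lower than CC, with MMP3 among the higher ones and MMP16 no longer called. The share among all genes was 33.2% higher and 35.9% lower. The 1.5-fold test gave 6 higher and 1 lower, against 17.2% and 19.9%. MMP3 passed the low-count filter through the groups where it is high, so its call is tied to the filter. Without it, a choice made after seeing the data, 6 of 8 members were higher, 5 of them beyond 1.5-fold. The median was 1.35 with MMP3 and 1.27 without it, and that of all genes -0.04. TC and PC were both set against the same CC libraries, so their counts are not independent of each other.

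From TC to PC, across the 2 days without drug, MMP3, MMP15 and MMP16 rose and MMP17 fell, which is 3 and 1 of 9 against 12.2% and 12.5% of all genes. Beyond 1.5-fold, 0 members were called in either direction, against 2.33% and 1.15% by glmTreat. At an unadjusted p under 0.05 that test gave 2 higher (MMP3 and MMP15) and 0 lower, and DESeq2 gave 0 in both directions. Here too the MMP3 call is tied to the filter, and without MMP3 there were 2 rises among 8 members. The MMP3 call was also lost without the first or the second TC library (adjusted p = 0.0578 and 0.061). MMP2, MMP14, TIMP1, TIMP2 and TIMP3 were not called, with values between -0.25 and 0.18.

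By RC most of the tested members were near the control level again, with TIMP3 (1.72-fold) and MMP3 (2.70-fold, not called) further above it. Against CC, 1 member was higher (TIMP3) and 2 lower (MMP14 and MMP17), where 18.2% and 19.1% of all genes were called. Beyond 1.5-fold there were 0 and 0 members against 1.35% and 2.52% of genes, with 1 higher (TIMP3) and 0 lower at an unadjusted p under 0.05 in glmTreat and 0 by DESeq2. The members' median was -0.01 and that of all genes 0.00. From PC to RC, 2 members rose (TIMP1 and TIMP3) and 5 fell (MMP2, MMP14, MMP15, MMP17 and TIMP2), against 35.7% and 34.2% of genes. All 5 falls passed the 1.5-fold test and neither rise did, against 18.5% of genes lower and 20.2% higher by that test. These falls were 17.2-fold for MMP2, 3.95-fold for MMP14, 27.8-fold for MMP15, 3.01-fold for MMP17 and 2.40-fold for TIMP2.

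**Figure D2:**
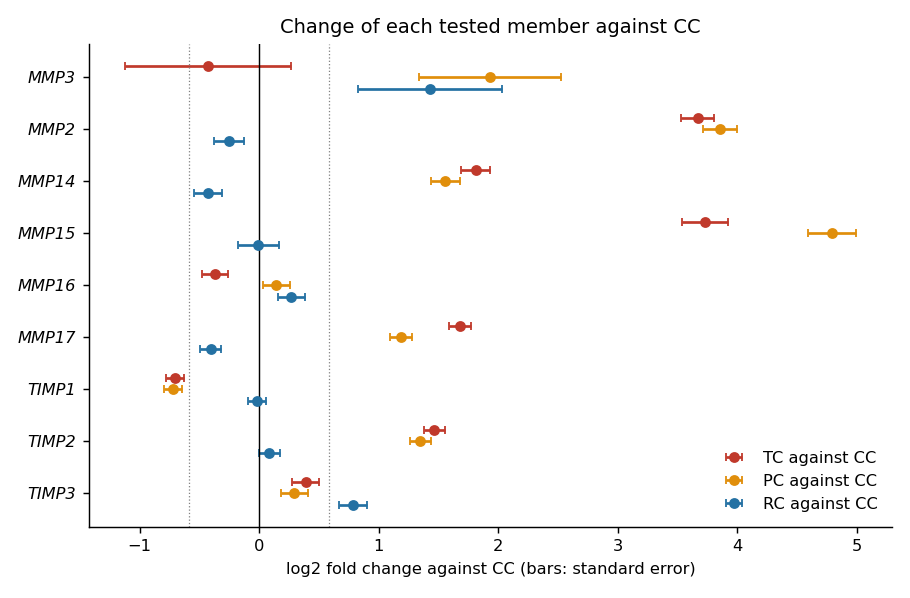
Log2 fold change against CC of the 9 tested members in TC, PC and RC, with the standard error as a bar and dotted lines at a fold of 1.5 in each direction. MMP2 and MMP15 lie between 3.67 and 4.79 in TC and PC, MMP14, MMP17 and TIMP2 between 1.19 and 1.81, TIMP1 at -0.71 and -0.72, and the RC points within the dotted lines except MMP3 (1.43, not called) and TIMP3 (0.79).

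To set genes of different length side by side, CPM were divided by the exon length of the gene in kb, merged over its GENCODE transcripts. In CC the inhibitors led: 134.7 CPM per kb for TIMP2, 117.6 for TIMP1 and 86.2 for TIMP3, followed by MMP14 at 40.5, MMP15 at 30.0, MMP17 at 29.7, MMP16 at 24.1 and MMP2 at 21.9. TIMP2 and TIMP1 overlapped between libraries, as did each neighbouring pair from MMP15 to MMP2. In TC, MMP15 (398.4) and TIMP2 (371.7) led with overlapping libraries, and MMP2 (278.3) and MMP14 (142.3) came next. The order in PC was MMP15 (830.6), TIMP2 (343.1), MMP2 (316.0), MMP14 (119.4), TIMP3 (105.5), TIMP1 (71.5), MMP17 (67.7) and MMP16 (26.6), of which TIMP2 and MMP2 alone overlapped. RC again had TIMP3 (148.6), TIMP2 (142.7) and TIMP1 (116.4) ahead of MMP14 (30.2), MMP15 (29.9), MMP16 (29.1), MMP17 (22.5) and MMP2 (18.4), and here TIMP3 with TIMP2, MMP14 with MMP15, MMP15 with MMP16 and MMP17 with MMP2 overlapped. MMP3 and MMP1 came last in every group, at 0.251 CPM per kb or less. With the longest transcript as the length, TIMP2 (631.9) led MMP15 (415.0) in TC, TIMP2 led in RC and MMP17 stood beside MMP14. In PC, MMP17 (112.3) then came ahead of TIMP3 (105.5), with overlapping libraries, and of TIMP1 (94.45). In CC, TIMP2 and TIMP1 no longer overlapped. These places therefore depend on the length used.

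Summed over the 7 MMP genes, the level was 146 ± 1.4 CPM per kb in CC, 933 ± 186 in TC, 1361 ± 58.5 in PC and 130 ± 10.5 in RC. The 3 TIMP genes summed to 338.5 ± 17.8, 557 ± 13.2, 520 ± 31.2 and 408 ± 34.2 CPM per kb in the same order. The MMP sum divided by the TIMP sum was therefore 0.405 to 0.449 in the CC libraries, 1.32 to 2.07 in TC, 2.38 to 2.92 in PC and 0.315 to 0.328 in RC. The groups did not overlap, and the MMP sum exceeded the TIMP sum in every TC and PC library and in no CC or RC library, also with the longest transcript as the length (1.07 to 1.68 in TC and 1.80 to 2.27 in PC). MMP15 made up 20.5% ± 2.2 of the MMP sum in CC, 42.1% ± 4.3 in TC, 61.1% ± 1.0 in PC and 22.9% ± 0.8 in RC. TIMP2 took 39.9% ± 2.1, 66.7% ± 3.7, 65.8% ± 3.2 and 35.0% ± 0.4 of the TIMP sum. These sums are a description of transcripts, without a test, and say nothing of active enzyme.

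**Figure D3:**
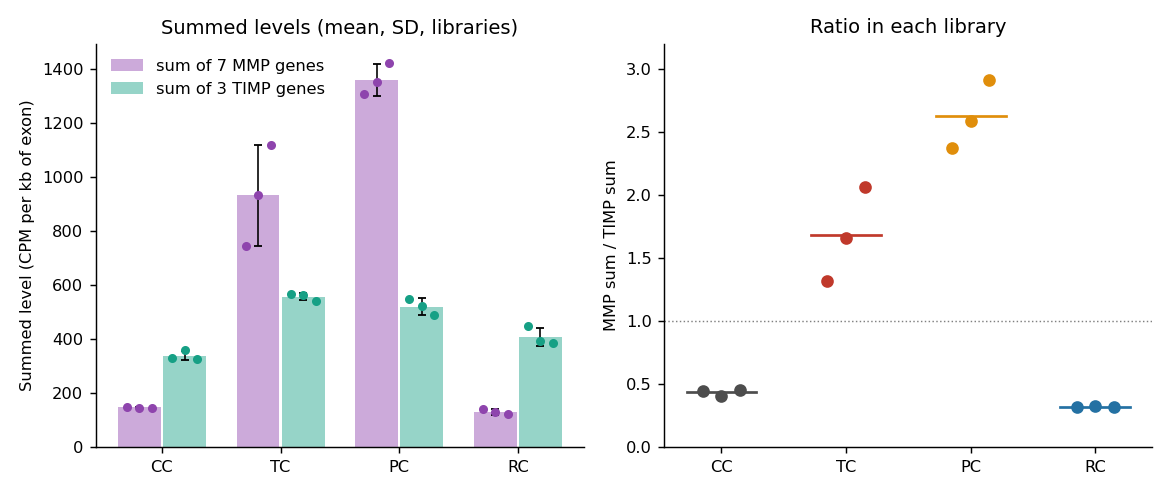
Left, summed level in CPM per kb of exon of the 7 MMP genes and of the 3 TIMP genes (bars at the mean, SD as error bar, 1 point per library). Right, the ratio of these sums in each library with a bar at the group mean and a dotted line at 1: CC and RC libraries lie from 0.315 to 0.449, and TC and PC libraries between 1.32 and 2.92.

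Across the 12 libraries, which fall into the 4 groups and share the treatment, the log2 levels of MMP2, MMP14, MMP15, MMP17 and TIMP2 ran together, with Pearson correlations of 0.904 to 0.986 between pairs. TIMP1 ran against them (-0.934 to -0.975). TIMP3 had correlations near 0 with these genes over the 12 libraries (-0.192 to -0.059), although it too was above CC in TC and PC and was highest in RC. MMP16 was opposite to them (-0.624 to -0.319). Among 11914 genes whose mean normalized count was 100 or more, the most similar profiles over the 12 libraries were those of COL9A3 (0.9992) and TRIM58 (0.9985) for MMP15, IDUA (0.9985) and CHADL (0.998) for MMP2, PCDH20 (0.9984) and TAPBPL (0.9968) for MMP14, HEXIM1 (0.9946) and CYP26B1 (0.9915) for MMP17, and ATXN7L3B (0.9951) and KANK2 (0.9944) for TIMP2. Such likeness was common, since between 560 and 1184 genes reached 0.95 with each of these members.

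The rest of the family was scarce, and 5 of 17 further MMP and TIMP genes could be tested. In TC, 4 of them were higher than CC and 1 lower, in PC 3 higher and 1 lower, and in RC 2 higher and 2 lower. The shares of all tested genes were 33.2% and 34.7% for TC, 33.2% and 35.9% for PC, and 18.2% and 19.1% for RC. MMP19 and TIMP4 were among the higher genes in TC and PC, and TIMP4 also in RC. Both passed the filter through their TC and PC counts, so the counts of higher genes are tied to the filter. MMP19, a secreted MMP, had 5, 3 and 1 counts in CC and 2, 0 and 0 in RC but 202, 157 and 340 in TC and 338, 478 and 486 in PC. The change was 6.19 ± 0.49 in TC (95% interval 5.11 to 7.26, adjusted p = 3.01e-07) and 7.15 ± 0.50 in PC (adjusted p = 8.68e-08), from a base of 9 counts in all. MMP19 passed the filter through its TC and PC counts, so its test is tied to their being high. Exons of MMP19 overlap TMEM198B on the other strand over 17.57% of their length.

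TIMP4, the remaining inhibitor of the family, was higher in TC and higher again in PC, at a far lower count than TIMP2. Its levels were 0.247, 0.158 and 0.190 CPM in CC, 8.14, 9.10 and 11.1 CPM in TC, 14.0, 17.6 and 16.1 CPM in PC, and 0.689, 0.427 and 0.719 CPM in RC. No groups overlapped. The log2 change was 5.56 ± 0.25 in TC (adjusted p = 2.16e-09), 6.31 ± 0.25 in PC (adjusted p = 9.45e-10) and 1.61 ± 0.26 in RC (adjusted p = 0.000611). With 26 counts over the 3 CC libraries, TIMP4 too passed the filter through TC and PC. It lies inside SYN2 and shares 14.24% of its exon length with it on the other strand.

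MMP8, a collagenase best known from neutrophils, ran opposite to most of the family. It was at 3.90, 7.43 and 4.21 CPM in CC, 0.985, 1.15 and 0.653 CPM in TC, 2.64, 2.22 and 2.96 CPM in PC, and 21.6, 21.6 and 19.7 CPM in RC. TC was lowest and RC highest, with no overlap of any groups. MMP8 fell by 2.49 ± 0.27 on the log2 scale in TC (adjusted p = 4.39e-06), was higher in PC than in TC by a factor of 2.83 (adjusted p = 0.00168), and exceeded CC by 2.02 ± 0.25 in RC (4.05-fold, adjusted p = 0.000105). Macrophage markers, the nearest leukocyte list examined, summed to at most 2.582 CPM in any library, and 1.513 to 1.773 CPM in RC. Within that list, PTPRC was at 0.555 CPM in CC, 0.042 in TC, 0.140 in PC and 0.606 in RC. LYZ was at 1.05, 0.788, 0.496 and 0.821 CPM in the same order. Neutrophil genes were not listed, and the source of the MMP8 reads was not tested.

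MMP24, a transmembrane MMP, rose from 0.887 ± 0.17 CPM in CC to 2.74 ± 0.29 in TC and 3.32 ± 0.27 in PC (log2 change 1.63 ± 0.22 and 1.91 ± 0.22, adjusted p = 2.77e-05 and 6.86e-06) and was at 0.570 ± 0.15 in RC (-0.63 ± 0.22, adjusted p = 0.0439). Its exons overlap the antisense gene MMP24OS over 18.42% of their length, and the counting strand was not stated. MMP25, which has a lipid anchor, was at 1.38 ± 0.40 CPM in CC, 2.50 ± 0.66 in TC, 1.76 ± 0.16 in PC and 0.766 ± 0.23 in RC, with a rise of 0.85 ± 0.28 in TC (adjusted p = 0.0179) although the TC and CC libraries overlapped. The gelatinase MMP9 had 12, 0, 3 and 1 counts over the 3 libraries of CC, TC, PC and RC, and MMP13, a collagenase, had 3 counts in PC and 0 elsewhere. MMP11 and MMP28 each had a main entry and an entry numbered as a copy, which is not among the further genes counted above. The main MMP11 entry had 0 counts throughout. Its copy had 28, 128, 295 and 21 counts in CC, TC, PC and RC. This copy changed by 2.27 ± 0.70 in TC (adjusted p = 0.0121) and 3.45 ± 0.70 in PC (adjusted p = 0.000805). MMP28 had 0, 7, 4 and 0 counts in its main entry and 0, 141, 72 and 0 in its copy (adjusted p = 0.00618 in TC and 0.0119 in PC). Both copies passed the filter through TC and PC, so their calls are tied to it.

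**Figure D4:**
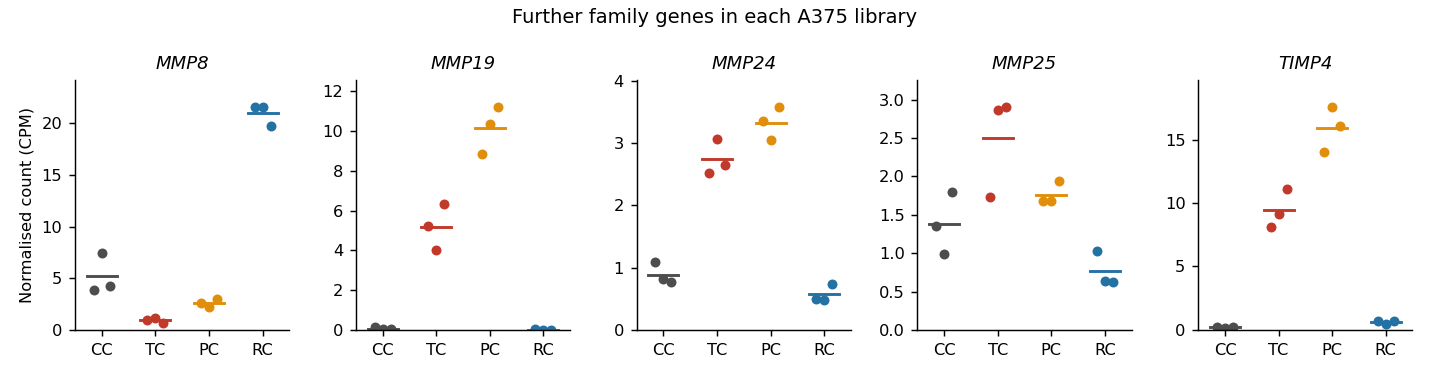
Normalized counts (CPM, linear axis from 0 in each panel) of MMP8, MMP19, MMP24, MMP25 and TIMP4, with 1 point per library and a bar at the mean. MMP19 and TIMP4 are near 0 in CC and RC and highest in PC, and MMP8 is lowest in TC and highest in RC at 19.7 to 21.6 CPM.

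Genes that act with the MMPs were read from lists. Among 12 genes listed for MMP activation, as proteases, receptors or inducers, 7 were tested. Of these, 5 were higher in TC and 2 were not called, where 33.2% of all genes were higher. Among those too low to test, PLAU stood at 0.074 CPM in CC and 0.034 CPM in TC, and PLG and CTSG had 0 counts. The proprotein convertases, which cut the propeptide of membrane-type MMPs, led: FURIN went from 132 to 383 CPM in TC and 298 CPM in PC (log2 change 1.54 ± 0.10 and 1.18 ± 0.10), PCSK5 rose by 1.61 ± 0.18 in TC and 2.19 ± 0.18 in PC, and PCSK7 by 1.37 ± 0.12 and 1.59 ± 0.12. The list median was 0.87 in TC against -0.02 for all genes.

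Of 9 tested genes on a list of further protease inhibitors and related proteins, 2 were higher and 3 lower in TC, with a median of -0.13. Both TC shares were no larger than those of all genes, 33.2% and 34.7%. In PC, 3 were higher and 5 lower (median -0.40), against 33.2% and 35.9% of all genes. In RC, 2 were higher and 5 lower (median -1.02), against 18.2% and 19.1%. SPOCK1, a matrix proteoglycan, rose from 0.965 to 32.7 CPM in TC and 54.4 CPM in PC (5.09 ± 0.23 and 5.82 ± 0.24), while its relative SPOCK3 fell by 2.28 ± 0.30 on the log2 scale in TC. SERPINE2, a serine protease inhibitor, fell from 7502 to 1714 CPM (-2.13 ± 0.07). A2M, which traps many proteases, went from 1817 to 781 CPM in TC, 378 CPM in PC and 664 CPM in RC (-1.22 ± 0.10, -2.27 ± 0.11 and -1.45 ± 0.10).

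Among 22 tested matrix genes, 5 were higher and 11 lower in TC and 9 higher and 12 lower in PC, with medians of -0.30 and -0.71. Of all genes, 33.2% and 34.7% were called in TC and 33.2% and 35.9% in PC. COL5A2, a fibrillar collagen chain, rose from 81.5 to 630.5 CPM in TC (2.95 ± 0.17), as did FBN1 (1.31 ± 0.28), a microfibril protein, and HSPG2 (0.97 ± 0.21), the basement membrane proteoglycan perlecan. The falls were led by LAMA3, a laminin chain (-3.33 ± 0.35), the proteoglycan gene VCAN (-3.27 ± 0.19) and COL4A1, a type IV collagen chain, which went from 329 to 38.6 CPM (-3.09 ± 0.07) and was at 364 CPM in RC (adjusted p = 0.102 against CC).

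Of 21 tested ADAM and ADAMTS proteases, which TIMP3 also inhibits in part, 6 were higher and 10 lower in TC, with a median of -0.32, against 33.2% and 34.7% of all genes. ADAMTS15 rose from 0.556 to 44.96 CPM in TC and 163 CPM in PC, ADAMTS16 by 4.25 ± 0.45 and 6.94 ± 0.47, and ADAM19 by 2.38 ± 0.19 and 4.07 ± 0.20. ADAMTS16 had 17 counts over the CC libraries and 30 over the RC libraries and passed the filter through TC and PC. It is among the 6 higher genes, so that count is tied to the filter. ADAM19 was still 2.29 ± 0.19 above CC in RC (adjusted p = 1.41e-05). ADAMTS9 (-2.55 ± 0.18), ADAMTS6 (-2.42 ± 0.27) and ADAMTS20 (-1.97 ± 0.33) fell in TC.

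Factors of the AP-1, ETS and related families, known to act at MMP promoters, were tested for all 17 listed genes, and 7 were higher and 4 lower in TC (median 0.07), against 33.2% and 34.7% of all genes. JUN rose from 46.7 to 952 CPM in TC and 719 CPM in PC (4.35 ± 0.09 and 3.94 ± 0.09) and was below CC in RC at 18.8 CPM (-1.31 ± 0.08). FOSL2 rose by 3.60 ± 0.13 in TC and 4.38 ± 0.13 in PC, and ETS1 by 1.57 ± 0.05 and 1.52 ± 0.05. ETV4, ETV5 and ETV1, ETS factors induced by MAPK signalling, fell in TC (-6.49 ± 0.10, -4.99 ± 0.11 and -3.79 ± 0.10) and did not differ from CC by the test in RC (adjusted p = 0.89, 0.975 and 0.371). ETV4 and ETV5 also stand in the list of MAPK-driven genes above.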

How the data were processed

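RNA-seq counts of 12 A375 libraries in 4 groups of 3 were used. The authors deposited raw read counts per gene: reads were trimmed with fastp 0.20.1, aligned to GRCh38.p13 with HISAT2 2.2.1 and counted on exons with htseq-count (HTSeq 0.13.5). Strand setting and treatment of reads with several alignments are not given in the sources used here, so overlapping and antisense genes may share counts. The table also holds 5088 entries numbered as copies of a gene.

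Genes with a mean scaled count of at least 10 were tested, with TMM scaling and a quasi-likelihood fit of 1 mean per group in edgeR 4.0.16 (R 4.3.3, 8 residual degrees of freedom). Calls used glmQLFTest at a two-sided Benjamini-Hochberg adjusted p under 0.05 over all 15916 tested genes, and glmTreat for a change beyond 1.5-fold. Standard errors and 95% intervals came from the F statistic. With 3 libraries against 3, an exact permutation test of a single gene cannot go below p = 0.1, so none was used. Counting floors (3 counts) cover counting error only. The procedure was also run on simulated data with far fewer changed genes than were called here. That run therefore does not cover the scaling under such wide changes. Alternatives were DESeq2 1.42.0, other scalings and filters, a replicate block, fits of 2 groups and leaving out each library.

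The members, lists and tests were chosen with earlier results of these data known. Named genes are the members, and from each other list up to 3 with the largest rise and 3 with the largest fall beyond 1.5-fold in TC, plus any further MMP or TIMP whose mean normalized count was 10 or more. The most similar profiles are the 2 highest Pearson correlations of log2 CPM for each member called beyond 1.5-fold in TC. MMP9, MMP13, MMP11, MMP28, EPHA2, PLAU, PLG, CTSG and the markers of melanoma and of other cell types were named after their values were seen. Coordinates and exon lengths are from GENCODE v44 (GRCh38), another annotation than the NCBI one used by the authors, and promoters are from RefSeq.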

Additional observations from a re-analysis of the deposited data

Results flagged for a closer look

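Changes against CC that differed between TC and PC, by the test of PC against TC, were found for MMP3 (2.36 on the log2 scale), MMP15 (1.06), MMP16 (0.51) and MMP17 (-0.50), with the adjusted p-values given above. MMP14 (-0.42) and MMP17 (-0.40) were above CC in all 3 PC libraries and below it in all 3 RC libraries, and these values are the RC changes against CC. No explanation was tested for any of them.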

How the results depend on the processing

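Each fold change and count of members was recomputed under 7 other settings and 12 fits that left out 1 library. Of 850 recomputed log2 fold changes of members, 819 kept their direction and call, 9 lost the call, 7 gained it and 15 changed sign, all of the last in differences close to 0. MMP15 in RC against CC became 0.0046 with RLE size factors, 0.024 with library totals, 0.0048 with a summed count of at least 2 and 0.0047 with DESeq2, and -0.093 to 0.072 without single libraries. TIMP1 in RC against CC became 0.014 with library totals and -0.084 to 0.081 without single libraries, and in PC against TC 0.0023 with RLE, 0.0041 with library totals, 0.0024 with DESeq2 and -0.022 to 0.0076 without single libraries.

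Of 380 recomputed counts of members, 346 stayed within 1.5 times. Lower beyond 1.5-fold in TC became 1 with library totals or a mean count of at least 50 (0 to 1 without single libraries). The same count in PC became 0 with RLE, a summed count of at least 2, DESeq2 or fits of 2 groups (0 to 1 without single libraries). Higher in RC against CC became 2 with library totals, DESeq2 or the replicate block (1 to 2 without single libraries). Higher beyond 1.5-fold from TC to PC became 1 with library totals or a mean count of at least 50, and from PC to RC 1 with library totals, a summed count of at least 2 or fits of 2 groups (both 0 to 1 without single libraries). Without single libraries, members lower in TC, in RC and from TC to PC numbered 1 to 2 each. The cause was not tested. MMP3 gave no value under the mean of at least 50. Of 40 per-length levels recomputed with the longest transcript as the length, 22 moved by more than the SD of the 3 libraries.

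Over all tested genes, deviations of same-numbered libraries had correlations of -0.0347 to 0.131 and not every pair passed 0.1, so the numbers were not taken to pair the libraries, although 6 members had the same highest and lowest library numbers in TC and PC; a replicate block made MMP16 called in RC (0.28, adjusted p = 0.0306) and changed no other member's call at an adjusted p under 0.05. Depth limits MMP1 and MMP3, whose counts stayed at 22 or below.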
